A study of Mus musculus with 8 samples.

Results

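The genes described here are the integrins and the claudins of the mouse genome, that is, every protein-coding gene whose GENCODE vM1 symbol begins with Itga, Itgb or Cldn followed by the letter or number of a subunit. The rule used the names alone and no measured value. It gave 53 of the 37620 genes counted in each library, namely 18 integrin alpha subunits, 8 integrin beta subunits and 27 claudins. Each member was identified by its Ensembl gene identifier, and the rows of the count tables were paired with symbols through the annotation, which named 37205 of them.

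Poly-A RNA was measured by strand-specific sequencing in 8 libraries, in a study that modelled how signals set the state of mouse embryonic stem cells (mESCs). R1, an mESC line, gave 7 libraries, and another line, whose Cdx2 reporter is a green fluorescent protein (GFP), gave the remaining library. The mESCs were cultured in serum without feeder cells. All 5 unsorted mESC libraries and the sorted library shared 2i, which is CHIR99021 (3 µM, an inhibitor of the kinase GSK3) with PD0325901 (1 µM, an inhibitor of the kinase MEK). The 2i library was taken at day 5. The 2iJ library, also at day 5, had in addition a JAK inhibitor (2.0 µM), which blocks signalling downstream of the cytokine LIF. The 2iJ+B-A libraries, at days 2, 5 and 11, had 2i, the JAK inhibitor, BMP4 (10 ng/ml, a growth factor) and ALK5 inhibitor II (10 µM), which blocks receptors of Activin and Nodal. The sorted library held GFP-positive cells of the Cdx2 reporter line after 2 days in the complete 2iJ+B-A mixture, so that it differed from the unsorted libraries in cell line as well as in the sort. The mesoderm progenitors were made from R1 embryoid bodies in a medium with no listed serum to which BMP4, Activin A and Wnt3a had been added, and were taken at days 3 and 4. An inhibitor of Wnt secretion was present for the last day of the day 4 culture, and its effect and that of the day cannot be told apart.

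Gene totals ran from 19810855 counts (sorted) to 31453888 (2iJ+B-A day 5). The sorted library stood apart from the others before any comparison: 29.7% of its read pairs were unmapped against 2.17% to 3.85% elsewhere, and 27.8% lay in no annotated feature against 7.83% to 13.2%. Levels are given as CPM, the counts of a gene scaled to the same total of gene counts in every library, and a count of 0 allows a level of up to 0.151 CPM in the sorted library and 0.095 to 0.122 CPM in the others (3 counts, counting error only). The days of a group served as its samples, 2 for mesoderm and 3 for 2iJ+B-A, so the spread within a group includes time, and 2i, 2iJ and the sorted cells had 1 library each. Nothing in the labels said that samples came from separate cultures. All 6 nascent mesoderm markers were higher and 4 of 6 pluripotency markers lower in mesoderm than in 2iJ+B-A by the test below, and 2 of 7 trophectoderm markers were higher in the sorted library, Krt18 and Cdx2, on whose reporter the cells were sorted. 4 more lay above 2iJ+B-A without being called, and Hand1 was at -0.35 log2 units. The pluripotency markers Pou5f1 and Nanog were not called in mesoderm. They were at 701 and 153 CPM at day 3 of mesoderm, and at 35.4 and 9.72 at day 4. RNA came from whole cultures, or from the GFP-positive cells in the sorted library, so fewer cells of a type and less RNA per cell cannot be told apart.

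Integrins are heterodimers of an alpha and a beta subunit that span the membrane, bind extracellular matrix or surface molecules outside the cell and are coupled to actin inside it. The alpha subunit largely sets the ligand: Itga3, Itga6 and Itga7 give laminin receptors, Itga5, Itga8, Itgav and Itga2b receptors for ligands with an RGD motif such as fibronectin and vitronectin, Itga1, Itga2, Itga10 and Itga11 collagen receptors, and Itgal, Itgam, Itgax, Itgad and Itgae receptors best known from leukocytes. Claudins are membrane proteins that cross the membrane several times and form the strands of tight junctions, where some seal the space between epithelial cells and others form pores. In the early embryo tight junctions first form in the trophectoderm, the outer epithelium of the blastocyst, whereas cells that become mesoderm leave an epithelium at the primitive streak.

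The promoters of Cldn4, Cldn6, Cldn3 and Cldn7, claudins of simple epithelia, are shown here with the E-box CACCTG marked. The zinc-finger repressors of the Snail and Zeb families, known from epithelial to mesenchymal transition, bind this E-box. Each window runs 5′ to 3′ from 250 bases before to 50 bases after a RefSeq transcription start (GRCm38.p6), and capitals mark CACCTG on either strand, which reads CAGGTG on the opposite strand.
Cldn4 (chr5:134946885-134947184, minus strand): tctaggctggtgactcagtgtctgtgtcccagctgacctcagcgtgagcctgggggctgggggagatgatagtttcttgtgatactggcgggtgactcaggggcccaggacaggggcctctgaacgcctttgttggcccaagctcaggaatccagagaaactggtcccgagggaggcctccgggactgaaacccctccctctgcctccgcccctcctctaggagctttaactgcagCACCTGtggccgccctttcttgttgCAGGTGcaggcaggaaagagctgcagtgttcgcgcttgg
Cldn6 (chr17:23679115-23679414, plus strand): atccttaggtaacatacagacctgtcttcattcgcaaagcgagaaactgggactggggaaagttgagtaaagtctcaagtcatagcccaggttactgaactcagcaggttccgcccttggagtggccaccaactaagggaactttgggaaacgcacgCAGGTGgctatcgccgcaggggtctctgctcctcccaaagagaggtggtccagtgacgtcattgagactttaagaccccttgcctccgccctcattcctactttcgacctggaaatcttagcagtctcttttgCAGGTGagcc
Cldn3 (chr5:134985964-134986263, plus strand): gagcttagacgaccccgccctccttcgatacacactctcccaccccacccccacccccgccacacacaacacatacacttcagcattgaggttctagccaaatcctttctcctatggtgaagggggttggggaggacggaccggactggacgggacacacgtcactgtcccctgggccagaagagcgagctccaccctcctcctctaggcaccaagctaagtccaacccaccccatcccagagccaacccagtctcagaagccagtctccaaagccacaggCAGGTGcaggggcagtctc
Cldn7 (chr11:69964529-69964828, plus strand): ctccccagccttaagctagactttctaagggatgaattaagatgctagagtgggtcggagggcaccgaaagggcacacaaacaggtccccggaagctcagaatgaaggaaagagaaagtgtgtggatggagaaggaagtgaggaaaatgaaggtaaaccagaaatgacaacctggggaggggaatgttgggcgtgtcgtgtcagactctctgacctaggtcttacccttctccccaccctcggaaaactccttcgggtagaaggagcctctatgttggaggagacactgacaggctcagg

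The Cldn4 window held 2 matches, that of Cldn6 2, that of Cldn3 1 and that of the upstream Cldn7 start 0, whereas a second Cldn7 window not shown held 2. RefSeq windows were matched for 37 members with 47 starts, of which 11 (23.4%) held CACCTG against 20.2% of all 32851 windows, so the members held it at about the share of promoters in general. The other motifs searched on both strands were GCCNNNGGC (bound by AP-2 factors; 21.3% of member windows against 16.6% of all), GGAATG (bound by TEAD factors; 17.0% against 14.7%), AGATAA (bound by GATA factors; 6.38% against 11.2%) and AACCGGTT (bound by grainyhead-like factors; 0% against 0.146%). A match is a description of the letters only.

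Neighbouring members lay in small clusters. In NCBIM37 Cldn4 (chr5:135420996-135422804, minus strand) and Cldn3 (chr5:135462084-135463342, plus strand) pointed away from each other with 39.28 kb between them. Cldn6 (chr17:23816332-23819413, plus strand) and Cldn9 (chr17:23819552-23820985, minus strand) faced each other tail to tail with 138 bases between them. Cldn7 (chr11:69778281-69781387) had no member within 100 kb. Among the integrins, Itgam, Itgax and Itgad stood in a row on chromosome 7, and Itga2 and Itga1 were 26.04 kb apart on chromosome 13.

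To compare levels between genes, CPM was divided by the exon length in kb. Cldn4 was the highest claudin on this scale in every mESC library (32.2% to 52.4% of the summed claudin level) and in the sorted library (68.0%). Cldn6 led at day 3 of mesoderm (28.4%) and Cldn25 at day 4 (57.2%). RefSeq names this Cldn25 gene Cldnd1 and not a claudin, and the next at day 4 was Cldn12 (17.4 CPM per kb). The claudins together summed to 60.4 CPM per kb with 2i and 68.0 with 2iJ. They reached 152, 163 and 118 at days 2, 5 and 11 of 2iJ+B-A, 663 in the sorted library, and 128 and 64.1 at days 3 and 4 of mesoderm. The sum was thus higher in all 3 2iJ+B-A libraries than in 2i and 2iJ, and was highest in the sorted library. Among alpha subunits Itga6 led in all mESC and sorted libraries (29.9% to 40.0%) and Itga5 in both mesoderm libraries (37.0% and 55.7%). Among beta subunits Itgb1 led in the 7 libraries of R1 (71.0% to 85.7%) and Itgb5 in the sorted library (52.1%).

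**Figure D1:**
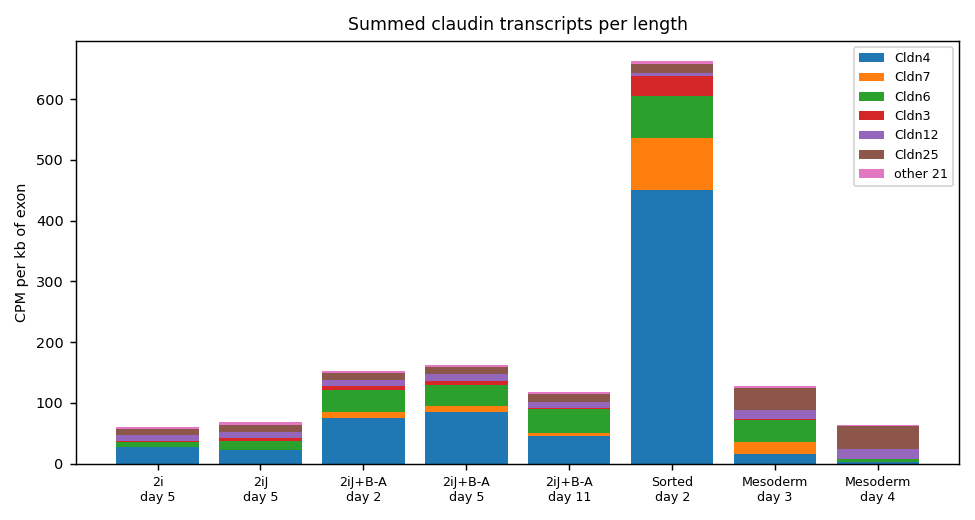
Summed claudin level of each library, in CPM per kb of exon, stacked by gene, with 1 bar per library. The sorted bar reaches 663, of which Cldn4 makes up 68.0%, while the 2i bar reaches 60.4.

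The mesoderm comparison asked how the mesoderm progenitors differed from mESCs in 2iJ+B-A. Counts were fitted with edgeR's quasi-likelihood test over all 16961 genes that passed the filter on low counts, with Benjamini-Hochberg adjustment. 38 members passed the filter (15 alpha, 8 beta and 15 claudin genes). Of these, 9 (23.7%) were higher in mesoderm, where 11.5% of all genes tested were, and 11 (28.9%) were lower, where 15.5% were. The other 18 were not called. Of the calls, 4 (Cldn11, Itgb8, Cldn18 and Itga11) were of genes that passed the filter only with the libraries of the group where they were high. Alpha subunits had 3 higher and 5 lower of 15, beta subunits 3 and 2 of 8, and claudins 3 and 4 of 15. The median log2 fold change was -0.79 over the 38 members and -0.03 over all genes. 7 of the 20 calls held in every alternative that could be fitted, those of Itgb1, Itgb3, Itgb7, Itgb8, Itgal, Itgam and Cldn25. Of these, Itgb8 did not pass the filter without mesoderm day 3 or without day 4, so its call was not checked there. The call of Itgae held without each library in turn. The other 12 calls were lost without at least 1 library, as given with each gene.

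The sorted comparison asked how cells with an active Cdx2 reporter differed from unsorted 2iJ+B-A cultures. Only 2 of the 38 members were called, Cldn9 as higher (2.63% of members, 3.34% of all genes tested) and Cldn12 as lower (2.63%, and 2.08% of all genes). The direction was positive for 23 members and negative for 15, with a median log2 fold change of 0.55 against -0.08 over all genes. 1 sorted library was assumed to vary like the other groups, whose spread included the 2 mesoderm days. In a fit of the sorted and 2iJ+B-A libraries alone, 10 of 35 members were called, 8 as higher (22.9%, where 6.66% of all 15980 genes tested were) and 2 as lower (5.71%, where 5.3% were). Over all genes the calls rose as well, from 919 to 1911. Leaving out any 2iJ+B-A library, in turn, left 0 calls among the members and 37 to 117 among all genes. The same 2iJ+B-A libraries served as controls in the mesoderm comparison.

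Against 2iJ, which tested the addition of BMP4 and the ALK5 inhibitor, edgeR called 0 members and 0 genes in all in 2iJ+B-A, with 2 members and 1290 genes at an unadjusted p under 0.05. The lowest adjusted p of a member was 0.460. DESeq2 called 0 members and 309 genes. The 2i and 2iJ libraries were at day 5 and 2iJ+B-A at days 2, 5 and 11, so the additives were not separated from culture time. An additional fit of the 5 unsorted mESC libraries alone, with 2i and 2iJ together as reference, was chosen after seeing the data. With the same reference in the fit of all libraries, 0 of 38 members and 150 genes were called, with adjusted p-values of 0.0667 (Itga11) to 0.351 (Cldn4) for the 5 genes named next. The additional fit called 4 of 34 members as higher in 2iJ+B-A (11.8%, where 2.48% of all 16235 genes tested were) and 1 as lower (2.94%, where 2.64% were). The 4 were Cldn7, Cldn6, Cldn4 and Itga11, and the other was Itgal. Of the 4, Itga11 passed the filter on low counts only with the 2iJ+B-A libraries, where it was high.

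**Figure D2:**
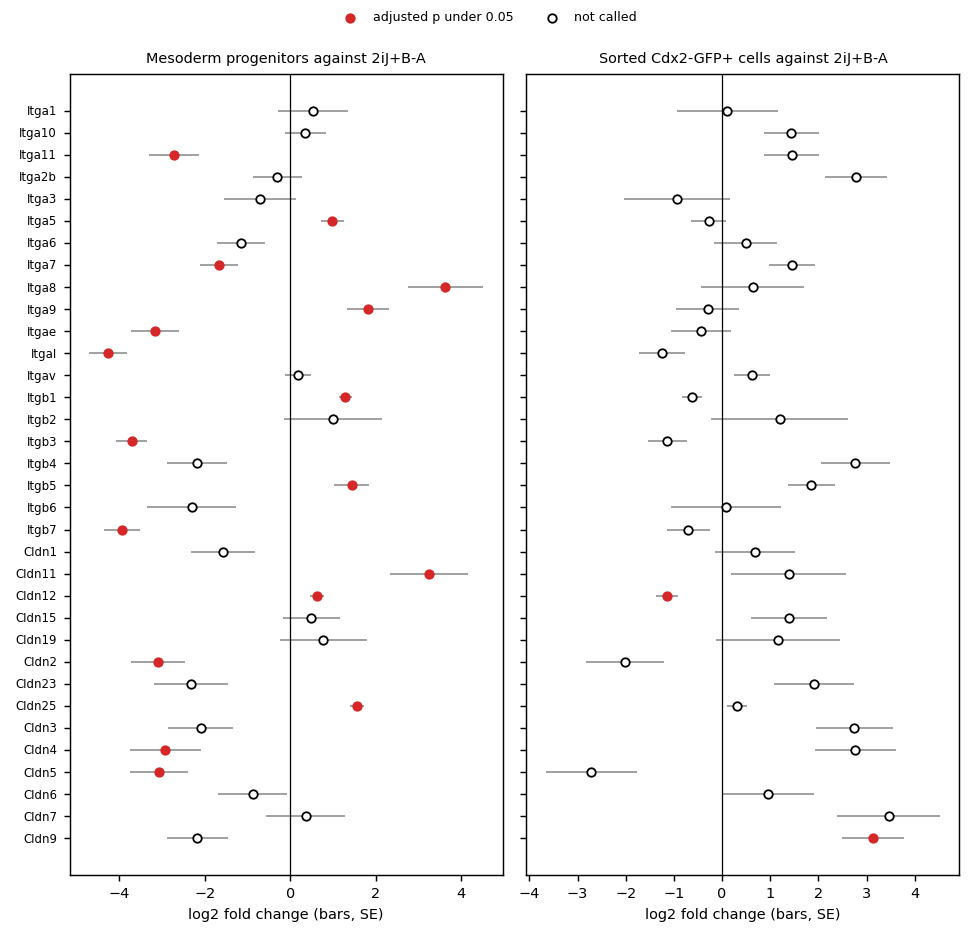
log2 fold change (x axis) of the tested members (y axis) in mesoderm progenitors (left) and sorted cells (right) against 2iJ+B-A, with bars of 1 SE and filled points where the edgeR adjusted p was under 0.05. Itgam, Cldn18, Itga4 and Itgb8 are left out because a library of the groups compared held 0 counts. In the sorted panel most claudins lie to the right of 0, but only Cldn9 and Cldn12 are filled.

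Cldn4, Cldn6, Cldn7, Cldn3 and Cldn9 are claudins of simple epithelia. Cldn4 was at 48.5 CPM in 2i, 39.6 with 2iJ, 136, 154 and 82.2 at days 2, 5 and 11 of 2iJ+B-A, 815 in the sorted library, and 29.2 and 3.52 in mesoderm at days 3 and 4. Cldn4 was thus higher in all 3 2iJ+B-A libraries than in 2i and 2iJ, highest in the sorted cells and lowest in mesoderm. Mesoderm differed from 2iJ+B-A by -2.92 ± 0.84 log2 units (SE, edgeR adjusted p = 0.0464), from a mean of 124 ± 37.4 CPM (SD, n = 3) in 2iJ+B-A. The call was lost without 2iJ+B-A day 2 (0.110), 2iJ+B-A day 5 (0.116) or 2iJ+B-A day 11 (0.0702), with the adjusted p in parentheses, and with all 5 unsorted mESC libraries as reference (0.0588). The sorted library differed from 2iJ+B-A by 2.77 ± 0.85 log2 units (SE, edgeR adjusted p = 0.103), which was not called across all groups and was called in the fit of these groups alone (0.00926). In the fit of the 5 unsorted mESC libraries, chosen after seeing the data, 2iJ+B-A differed from 2i and 2iJ by 1.41 ± 0.27 log2 units (SE, edgeR adjusted p = 0.0359). Cldn4 was called neither with the same reference in the fit of all libraries (0.351) nor against 2iJ.

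Cldn7 was at 1.31 CPM in 2i, 1.91 with 2iJ, 19.3, 19.0 and 8.98 at days 2, 5 and 11 of 2iJ+B-A, 167 in the sorted library, and 38.0 and 2.65 in mesoderm at days 3 and 4. The 2i and 2iJ values did not overlap with the other 6 libraries. In the fit of the 5 unsorted mESC libraries, chosen after seeing the data, Cldn7 showed the largest called difference of a claudin. There 2iJ+B-A differed from 2i and 2iJ by 3.21 ± 0.44 log2 units (SE, edgeR adjusted p = 0.0169). Cldn7 was called neither with the same reference in the fit of all libraries (0.1705) nor against 2iJ. The single 2i library had a 95% Wilson interval of 0.954 to 1.81 CPM and 2iJ one of 1.44 to 2.52, from counting error only. Between the mesoderm days Cldn7 differed by -3.78 on the log2 scale. The fold change of mesoderm against 2iJ+B-A was 0.37 ± 0.92 log2 units (SE, edgeR adjusted p = 0.799), whereas without mesoderm day 3 it was -2.50 (adjusted p = 0.0225). In sorted cells it was 3.45 ± 1.06 log2 units (SE, edgeR adjusted p = 0.104), and in the fit of these groups alone the adjusted p was 0.00939.

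Cldn6 was at 11.2 CPM in 2i, 22.2 with 2iJ, 54.3, 51.9 and 60.0 at days 2, 5 and 11 of 2iJ+B-A, 104 in the sorted library, and 54.7 and 5.49 in mesoderm at days 3 and 4. The 3 2iJ+B-A libraries lay close together (55.4 ± 4.14 CPM, SD, n = 3) and day 3 of mesoderm was within their range, while day 4 was lowest of all libraries. 2iJ+B-A exceeded 2i and 2iJ by 1.65 ± 0.28 log2 units (SE, edgeR adjusted p = 0.0278) in the fit of the unsorted mESC libraries, chosen after seeing the data. Cldn6 was called neither with the same reference in the fit of all libraries (0.328) nor against 2iJ. Mesoderm was not called against 2iJ+B-A (-0.88 ± 0.80 log2 units, SE, edgeR adjusted p = 0.454) but was without day 3 (-3.26, adjusted p = 0.00193). The sorted cells differed by 0.96 ± 0.94 log2 units (SE, edgeR adjusted p = 0.541) from 2iJ+B-A, with an adjusted p of 0.0312 in the fit of these groups alone. Its neighbour Cldn9 was far lower. For Cldn9 the values were 0.32 CPM in 2i, 0.623 in 2iJ, 0.326, 0.35 and 0.456 in 2iJ+B-A (days 2, 5 and 11), 3.23 in sorted cells and 0.127 and 0.032 in mesoderm (days 3 and 4). The sorted library was above all others, by 3.13 ± 0.65 log2 units (SE, edgeR adjusted p = 0.0476) against 2iJ+B-A, and 1.55% of the strand-assigned counts of Cldn9 lay on the opposite strand, the strand of Cldn6. The call was lost without 2iJ+B-A day 2 (0.105), 2iJ+B-A day 5 (0.171) or 2iJ+B-A day 11 (0.119), with DESeq2 (0.0587), with unstranded counts (0.0501) and with a slope on day (0.143). In mesoderm Cldn9 was called as lower with all 5 unsorted mESC libraries as reference (0.0291) and not in the fit above.

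Cldn3 was at 3.06 CPM in 2i, 6.42 with 2iJ, 8.03, 8.84 and 2.31 at days 2, 5 and 11 of 2iJ+B-A, 41.3 in the sorted library, and 2.29 and 0.678 in mesoderm at days 3 and 4. Cldn3, the neighbour of Cldn4, was highest in the sorted library and lowest at day 4 of mesoderm. It was not called in sorted cells (2.74 ± 0.80 log2 units, SE, edgeR adjusted p = 0.0925) or in mesoderm (-2.09 ± 0.77 log2 units, SE, edgeR adjusted p = 0.0902), and was called with DESeq2 in both (0.0163 and 0.0138) and in sorted cells in the fit of these groups alone (0.0463). Unlike Cldn4, Cldn6 and Cldn7, its 2iJ+B-A values overlapped with those of 2i and 2iJ. Cldn23 reached 2.12 CPM in the sorted library and no more than 0.890 elsewhere, and Cldn1 stayed at or under 0.795 CPM everywhere.

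**Figure D3:**
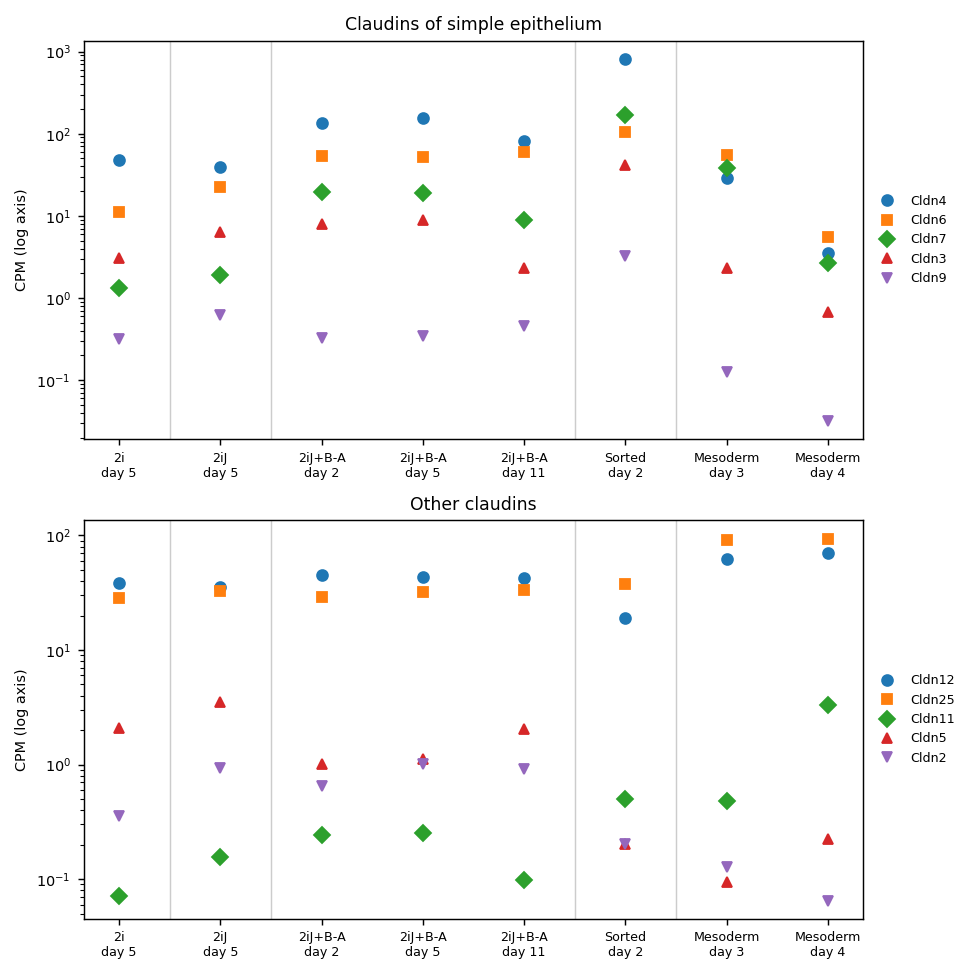
Level in CPM (log axis) of claudins in each library, with 1 point per gene and library. Cldn4, Cldn7, Cldn6, Cldn3 and Cldn9 are highest in the sorted library (815, 167, 104, 41.3 and 3.23 CPM), while Cldn12 is lowest there.

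2 other claudins were broadly detected and were highest in mesoderm. Cldn12 counted 62.2 and 71.0 CPM in mesoderm at days 3 and 4, 19.1 in the sorted cells, 45.0, 43.7 and 42.3 in 2iJ+B-A at days 2, 5 and 11, 35.5 in 2iJ and 38.6 in 2i. Cldn12 was highest in mesoderm and lowest in the sorted cells, with no overlap between the groups. Against 2iJ+B-A it differed by 0.62 ± 0.17 log2 units (SE, edgeR adjusted p = 0.0393) in mesoderm and by -1.14 ± 0.23 log2 units (SE, edgeR adjusted p = 0.0465) in sorted cells. The mesoderm call was lost without mesoderm day 4 (0.108), 2iJ+B-A day 2 (0.0687), 2iJ+B-A day 5 (0.128) or 2iJ+B-A day 11 (0.110) and without the filter (0.0524), and the sorted call without 2iJ+B-A day 2 (0.0909), 2iJ+B-A day 5 (0.157) or 2iJ+B-A day 11 (0.120) and with a slope on day (0.117). Cldn25 counted 91.1 and 94.0 CPM in mesoderm at days 3 and 4, 37.9 in the sorted cells, 29.0, 32.3 and 33.7 in 2iJ+B-A at days 2, 5 and 11, 32.5 in 2iJ and 28.2 in 2i. Mesoderm was 1.56 ± 0.16 log2 units (SE, edgeR adjusted p = 0.00279) above 2iJ+B-A, and the adjusted p stayed between 1.17e-14 and 0.0204 in 11 alternatives. The symbol Cldn25 at this locus is Cldnd1 in RefSeq, a claudin domain protein, and Cldn26 and Cldn27 are Tmem114 and Tmem235. These 3 members are therefore not named claudins in that annotation. Cldn21, on chromosome 9, is Cldn25-ps there.

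Claudins of other tissues were low. Cldn5 was at 2.10 CPM in 2i, 3.50 with 2iJ, 1.02, 1.11 and 2.05 at days 2, 5 and 11 of 2iJ+B-A, 0.202 in the sorted library, and 0.095 and 0.226 in mesoderm at days 3 and 4. Cldn5, the main claudin of endothelium, was lower in both mesoderm libraries than in any unsorted mESC library (-3.07 ± 0.69 log2 units, SE, edgeR adjusted p = 0.0221), and the call was lost without mesoderm day 3 (0.0647), 2iJ+B-A day 5 (0.0632) or 2iJ+B-A day 11 (0.0589). Cldn11 was at 0.071 CPM in 2i, 0.156 with 2iJ, 0.245, 0.254 and 0.098 at days 2, 5 and 11 of 2iJ+B-A, 0.505 in the sorted library, and 0.477 and 3.29 in mesoderm at days 3 and 4. The claudin of myelin and of the testis, Cldn11, differed by 3.25 ± 0.92 log2 units (SE, edgeR adjusted p = 0.0439) in mesoderm, with most of its mesoderm counts at day 4, and the call was lost without mesoderm day 4 (0.292), 2iJ+B-A day 2 (0.105), 2iJ+B-A day 5 (0.118) or 2iJ+B-A day 11 (0.118). Cldn2 was at 0.355 CPM in 2i, 0.934 with 2iJ, 0.652, 1.02 and 0.911 at days 2, 5 and 11 of 2iJ+B-A, 0.202 in the sorted library, and 0.127 and 0.065 in mesoderm at days 3 and 4. For Cldn2, a pore-forming claudin, mesoderm differed by -3.10 ± 0.64 log2 units (SE, edgeR adjusted p = 0.0176) from 2iJ+B-A, and the call was lost without mesoderm day 4 (0.0674), 2iJ+B-A day 5 (0.0682) or 2iJ+B-A day 11 (0.0504). Cldn18, known from stomach and lung, had 1 and 0 counts in mesoderm at days 3 and 4 against 18, 13 and 8 in 2iJ+B-A, 24 in 2i, 4 in 2iJ and 3 in the sorted library. It was called as lower (adjusted p = 0.0275), a call lost without mesoderm day 4 (0.0954), 2iJ+B-A day 2 (0.0590) or 2iJ+B-A day 5 (0.0742), and 77.9% of its strand-assigned counts lay on the opposite strand.

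The remaining claudins gave little signal. Cldn17, Cldn21, Cldn22 and Cldn24 had 0 counts in all 8 libraries, Cldn16 had a single count in all, and Cldn8, Cldn10, Cldn13, Cldn14, Cldn20 and Cldn27 did not exceed 0.178 CPM in any library. Cldn26 reached 2.58 CPM at day 3 of mesoderm and at most 0.353 CPM elsewhere. It had at least 10 counts in that library alone and did not pass the filter. Cldn15 and Cldn19 were tested, with a highest level of 1.01 and 0.604 CPM, and neither was called in any of the 3 comparisons.

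Itga6, a laminin receptor subunit, was the most abundant alpha subunit of the mESCs. Itga6 was at 121 CPM in 2i, 104 with 2iJ, 105, 124 and 97.1 at days 2, 5 and 11 of 2iJ+B-A, 147 in the sorted library, and 79.0 and 18.3 in mesoderm at days 3 and 4. It varied little among the mESC libraries (108 ± 13.7 CPM in 2iJ+B-A, SD, n = 3), was highest in the sorted cells and lowest at day 4 of mesoderm. It was not called in mesoderm (-1.15 ± 0.55 log2 units, SE, edgeR adjusted p = 0.168) but was without day 3 (-2.49, adjusted p = 0.00245), nor was it called in sorted cells (0.49 ± 0.65 log2 units, SE, edgeR adjusted p = 0.662). Itga3 was at 37.0 CPM in 2i, 24.9 with 2iJ, 30.6, 64.7 and 34.1 at days 2, 5 and 11 of 2iJ+B-A, 21.7 in the sorted library, and 47.4 and 5.07 in mesoderm at days 3 and 4. Day 3 of mesoderm lay within the range of 2iJ+B-A and day 4 below it, and Itga3 was not called (-0.71 ± 0.84 log2 units, SE, edgeR adjusted p = 0.564) unless day 3 was left out (-3.005, adjusted p = 0.0122). Itga7 was at 1.56 CPM in 2i, 1.64 with 2iJ, 2.61, 2.48 and 2.57 at days 2, 5 and 11 of 2iJ+B-A, 6.76 in the sorted library, and 0.954 and 0.646 in mesoderm at days 3 and 4. Itga7, best known from muscle, was low throughout and differed by -1.66 ± 0.44 log2 units (SE, edgeR adjusted p = 0.0371) in mesoderm from 2iJ+B-A. The call was lost without each of the 5 libraries compared, at an adjusted p of 0.0509 to 0.125, and without the filter (0.0513). In the sorted library Itga7 differed by 1.45 ± 0.49 log2 units (SE, edgeR adjusted p = 0.122), which was not called.

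Among the RGD receptors, Itga5, the fibronectin receptor subunit, was highest in mesoderm. Itga5 counted 80.1 and 75.1 CPM in mesoderm at days 3 and 4, 31.5 in the sorted cells, 37.4, 53.7 and 28.2 in 2iJ+B-A at days 2, 5 and 11, 41.9 in 2iJ and 53.3 in 2i. Mesoderm was 0.98 ± 0.27 log2 units (SE, edgeR adjusted p = 0.0419) above 2iJ+B-A with no overlap between the groups, and the call was lost without mesoderm day 3 (0.0752), mesoderm day 4 (0.0752), 2iJ+B-A day 2 (0.109) or 2iJ+B-A day 11 (0.0730). Itga8 counted 46.1 and 7.04 CPM in mesoderm at days 3 and 4, 3.23 in the sorted cells, 0.856, 2.19 and 3.38 in 2iJ+B-A at days 2, 5 and 11, 1.17 in 2iJ and 0.639 in 2i. Itga8, which pairs with Itgb1 to bind nephronectin, differed by 3.63 ± 0.88 log2 units (SE, edgeR adjusted p = 0.0273) in mesoderm, and the call was lost without mesoderm day 3 (0.112), 2iJ+B-A day 2 (0.0773) or 2iJ+B-A day 5 (0.0923). Both mesoderm values were above every mESC value, with day 3 far above day 4.

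Itgav was at 78.3 CPM in 2i, 69.8 with 2iJ, 32.4, 41.2 and 65.9 at days 2, 5 and 11 of 2iJ+B-A, 69.0 in the sorted library, and 50.9 and 53.8 in mesoderm at days 3 and 4. Itgav, the common partner of Itgb1, Itgb3, Itgb5, Itgb6 and Itgb8, was called in none of the 3 comparisons, and mesoderm and 2iJ+B-A overlapped. Its difference from 2iJ+B-A was 0.18 ± 0.31 log2 units (SE, edgeR adjusted p = 0.691) in mesoderm and 0.62 ± 0.38 log2 units (SE, edgeR adjusted p = 0.336) in sorted cells. Itga2b was at 1.74 CPM in 2i, 1.48 with 2iJ, 1.96, 2.13 and 1.53 at days 2, 5 and 11 of 2iJ+B-A, 12.4 in the sorted library, and 0.731 and 2.26 in mesoderm at days 3 and 4. Itga2b, the platelet subunit that is also found on early blood progenitors, was above all other libraries in the sorted cells. This was not called across all groups (2.78 ± 0.64 log2 units, SE, edgeR adjusted p = 0.0595), whereas it was with DESeq2 (0.00764), without the filter (0.0425) and in the fit of these groups alone (0.0167). In mesoderm the difference was -0.30 ± 0.57 log2 units (SE, edgeR adjusted p = 0.728). Of 5 endothelial and platelet markers, the platelet genes Pf4 and Gp9 were at or under 0.065 CPM in all libraries. The endothelial gene Cdh5 was at 1.31 CPM in the sorted library against 0.082, 0.286 and 0.228 in 2iJ+B-A (2.73 ± 1.01 log2 units, SE, edgeR adjusted p = 0.149). Pecam1 and Tek were at 34.2 and 0.909 CPM there against 130.3 to 146 and 4.71 to 13.0 in 2iJ+B-A, and none of the 3 was called. The summed level of the 5 was 36.4 CPM in the sorted library and 135 to 151 in 2iJ+B-A, and its part in the Itga2b values was not tested.

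Collagen receptors were low. Itga11 was at 0 CPM in 2i, 0.078 with 2iJ, 0.897, 0.763 and 0.977 at days 2, 5 and 11 of 2iJ+B-A, 2.32 in the sorted library, and 0.159 and 0.097 in mesoderm at days 3 and 4. Itga11 was higher in the 3 2iJ+B-A libraries than in 2i and 2iJ, which had 0 and 2 counts, and lower in mesoderm (-2.73 ± 0.58 log2 units, SE, edgeR adjusted p = 0.0191). 2iJ+B-A was called above 2i and 2iJ in the fit of the unsorted mESC libraries, chosen after seeing the data (edgeR adjusted p = 0.0378). Itga11 was called neither with the same reference in the fit of all libraries (0.0667) nor against 2iJ. The mesoderm call was lost without mesoderm day 4 (0.0754), 2iJ+B-A day 5 (0.0636) or 2iJ+B-A day 11 (0.0581), with unstranded counts (0.0665) and with all 5 unsorted mESC libraries as reference (-2.05, adjusted p = 0.285), and 41.3% of its strand-assigned counts lay on the opposite strand. Itga1 reached 6.14 CPM at day 3 of mesoderm, Itga10, whose counts are uncertain, at most 2.52 CPM and Itga2 at most 0.195 CPM, and none of them was called.

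The related subunits Itga9 and Itga4 bind, among others, tenascin and fibronectin. Itga9 counted 11.7 and 26.7 CPM in mesoderm at days 3 and 4, 4.34 in the sorted cells, 3.67, 8.01 and 5.01 in 2iJ+B-A at days 2, 5 and 11, 8.06 in 2iJ and 8.28 in 2i. Mesoderm was 1.81 ± 0.49 log2 units (SE, edgeR adjusted p = 0.0380) above 2iJ+B-A, a call lost without mesoderm day 4 (0.150), 2iJ+B-A day 2 (0.101), 2iJ+B-A day 5 (0.0631) or 2iJ+B-A day 11 (0.100). Itga4 was at 0 counts in the sorted library and at most 1.47 CPM elsewhere, with 75.3% of its strand-assigned counts on the opposite strand, where Cerkl overlaps it by 1124 bases, and it was called in none of the comparisons.

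**Figure D4:**
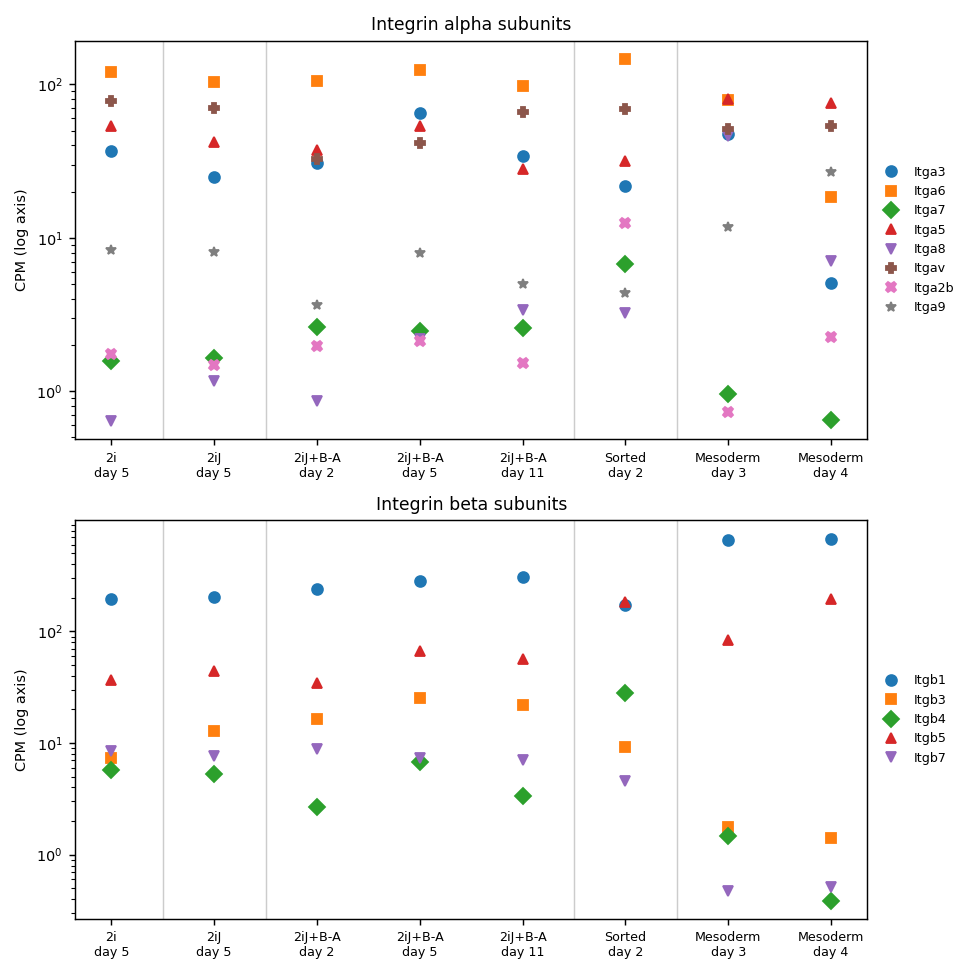
Level in CPM (log axis) of integrin alpha (top) and beta subunits (bottom) in each library, with 1 point per gene and library. Itga6 is the highest alpha subunit in CPM in every library except mesoderm, and Itgb3 and Itgb7 are lower in both mesoderm libraries (1.78 and 1.42, and 0.477 and 0.517 CPM) than in all others.

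Alpha subunits best known from leukocytes were detected in mESCs, although Ptprc and Lyz2, which mark leukocytes, were at or under 0.095 CPM in all libraries. Itgal was at 10.9 CPM in 2i, 9.38 with 2iJ, 4.69, 4.90 and 4.62 at days 2, 5 and 11 of 2iJ+B-A, 1.92 in the sorted library, and 0.223 and 0.258 in mesoderm at days 3 and 4. Itgal, the alpha subunit of LFA-1, was highest in 2i and 2iJ, at a lower level in 2iJ+B-A and lowest in mesoderm. In the fit of the unsorted mESC libraries, chosen after seeing the data, 2iJ+B-A differed from 2i and 2iJ by -1.18 ± 0.24 log2 units (SE, edgeR adjusted p = 0.0412). Itgal was called neither with the same reference in the fit of all libraries (0.102) nor against 2iJ. Mesoderm differed by -4.26 ± 0.44 log2 units (SE, edgeR adjusted p = 0.00269) from 2iJ+B-A, and the adjusted p stayed between 7.59e-14 and 0.0189 in 11 alternatives. Itgam was at 3.52 CPM in 2i, 2.45 with 2iJ, 2.45, 2.99 and 3.29 at days 2, 5 and 11 of 2iJ+B-A, 1.01 in the sorted library, and 0 and 0.032 in mesoderm at days 3 and 4. The counts were 0 and 1 in mesoderm against 60, 94 and 101 in 2iJ+B-A, and Itgam, the alpha subunit of Mac-1, was called as lower (adjusted p = 0.00391). Itgae was at 2.52 CPM in 2i, 2.49 with 2iJ, 2.24, 1.30 and 1.76 at days 2, 5 and 11 of 2iJ+B-A, 1.26 in the sorted library, and 0.223 and 0.162 in mesoderm at days 3 and 4. Itgae, which pairs with Itgb7 to bind E-cadherin, differed by -3.16 ± 0.57 log2 units (SE, edgeR adjusted p = 0.0117) in mesoderm, and with unstranded counts the adjusted p was 0.0646. On the opposite strand lay 46.3% of its strand-assigned counts. Itgax and Itgad did not exceed 0.303 CPM.

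Of the beta subunits, Itgb1, the partner of most alpha subunits, was the most abundant in the 7 libraries of R1, and Itgb5 in the sorted library. Itgb1 was at 194 CPM in 2i, 202 with 2iJ, 241, 281 and 308 at days 2, 5 and 11 of 2iJ+B-A, 173 in the sorted library, and 658 and 680.5 in mesoderm at days 3 and 4. The mesoderm libraries were close to each other and above all others, and the sorted library was lowest. Mesoderm was 1.29 ± 0.15 log2 units (SE, edgeR adjusted p = 0.00348) above 2iJ+B-A, with an adjusted p of 2e-10 to 0.0231 in 11 alternatives, from means of 669 ± 16.2 CPM (SD, n = 2) and 276 ± 33.7 CPM (SD, n = 3). The sorted cells differed by -0.63 ± 0.20 log2 units (SE, edgeR adjusted p = 0.110) from 2iJ+B-A, which was not called. Itgb5 counted 84.7 and 195 CPM in mesoderm at days 3 and 4, 183 in the sorted cells, 34.4, 67.1 and 56.2 in 2iJ+B-A at days 2, 5 and 11, 44.2 in 2iJ and 36.7 in 2i. Itgb5, which pairs with Itgav to bind vitronectin, was thus higher in mesoderm (1.44 ± 0.41 log2 units, SE, edgeR adjusted p = 0.0437) than in 2iJ+B-A, and the call was lost without mesoderm day 4 (0.168), 2iJ+B-A day 2 (0.110), 2iJ+B-A day 5 (0.0758) or 2iJ+B-A day 11 (0.0882). It was higher in the sorted library than in every unsorted mESC library, by 1.86 ± 0.48 log2 units (SE, edgeR adjusted p = 0.0732) against 2iJ+B-A, which was not called across all groups and was called with DESeq2 (0.00722), without the filter (0.0443) and in the fit of these groups alone (0.0235).

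Itgb3 was at 7.32 CPM in 2i, 12.8 with 2iJ, 16.4, 25.5 and 21.9 at days 2, 5 and 11 of 2iJ+B-A, 9.29 in the sorted library, and 1.78 and 1.42 in mesoderm at days 3 and 4. Itgb3, which pairs with Itgav and Itga2b, was higher in all mESC libraries than in mesoderm. Mesoderm differed by -3.71 ± 0.36 log2 units (SE, edgeR adjusted p = 0.00234) from 2iJ+B-A, and the adjusted p stayed between 7.96e-23 and 0.0166 in 11 alternatives. Itgb7 was at 8.42 CPM in 2i, 7.67 with 2iJ, 8.85, 7.28 and 7.06 at days 2, 5 and 11 of 2iJ+B-A, 4.59 in the sorted library, and 0.477 and 0.517 in mesoderm at days 3 and 4. Itgb7, a subunit best known from lymphocytes, differed by -3.94 ± 0.42 log2 units (SE, edgeR adjusted p = 0.00288) in mesoderm (an adjusted p of at most 0.0194 in 11 alternatives). Itgb8 counted 1.97 and 2.84 CPM in mesoderm at days 3 and 4, 0 in the sorted cells, 0.082, 0.032 and 0.065 in 2iJ+B-A at days 2, 5 and 11, 0.078 in 2iJ and 0.107 in 2i. The sorted library had 0 counts of Itgb8, and mesoderm 62 and 88 against 2, 1 and 2 in 2iJ+B-A. Itgb8, a partner of Itgav that activates latent TGF-beta, was called as higher in mesoderm (5.28 ± 0.62 log2 units, SE, edgeR adjusted p = 0.00373). Without either mesoderm day the gene did not pass the filter, so the call could not be checked that way.

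Itgb4 was at 5.75 CPM in 2i, 5.25 with 2iJ, 2.69, 6.74 and 3.35 at days 2, 5 and 11 of 2iJ+B-A, 27.9 in the sorted library, and 1.46 and 0.388 in mesoderm at days 3 and 4. Itgb4, which pairs with Itga6 in the hemidesmosomes of epithelia, was above all other libraries in the sorted cells and lowest in mesoderm. The difference from 2iJ+B-A was 2.76 ± 0.72 log2 units (SE, edgeR adjusted p = 0.0745) in sorted cells and -2.19 ± 0.70 log2 units (SE, edgeR adjusted p = 0.0629) in mesoderm, and neither was called. With DESeq2 the adjusted p was 0.00899 in sorted cells and 0.00631 in mesoderm, and without the filter 0.0486 and 0.0477. Mesoderm was also called with all 5 unsorted mESC libraries as reference (0.0218) and without its day 3 (0.0243), and the sorted cells in the fit of these groups alone (0.0268). Itgb2, the partner of Itgal and Itgam, had at most 2.16 CPM and Itgb6 at most 0.977 CPM, and neither was called. Itgb2 was at 0.426 CPM in 2i, 0.739 in 2iJ and 0.204, 0.350 and 1.14 in 2iJ+B-A.

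The JAK inhibitor was added to 2i in 1 library at day 5, so 2iJ against 2i is a description without a test. Of 24 members with at least 1 CPM in either library, 1 was past 1 log2 unit as higher in 2iJ (4.17%, where 2.28% of 13574 genes were) and 0 as lower (0.972% of genes). At 5 CPM or more in either library it was 1 of 16 as higher (0.761% of genes) and 0 as lower (0.437% of genes). This member reached 5 CPM only in 2iJ, where it was high. The gene was Cldn3 (1.04 on the log2 scale), followed by Cldn6 (0.97), whose counting intervals, 10.0 to 12.5 CPM and 20.5 to 24.1 CPM, did not overlap. The median difference was -0.09 over the members and 0.01 over all genes.

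Between the 2 mesoderm days more members were past 1 log2 unit. Of 23 members compared, 5 were higher at day 4 (21.7%, where 9.29% of 13314 genes were) and 10 were lower (43.5%, where 9.76% were), and 3 of the 5 and 3 of the 10 reached 1 CPM only on the day when they were high. At 5 CPM or more on either day, 2 of 14 members were higher (7.81% of genes) and 7 were lower (6.67% of genes). Of the 7, Cldn4, Cldn7 and Itga1 reached 5 CPM only at day 3, where they were high. The lower members were Cldn7 (-3.78 on the log2 scale), Itgb2 (-3.45), Cldn6 (-3.27), Itga3 (-3.18), Cldn4 (-3.0), Itga8 (-2.67), Itga6 (-2.08), Itga1 (-1.83), Itgb4 (-1.71) and Cldn3 (-1.63). They included Cldn3, Cldn4, Cldn6 and Cldn7 and the laminin receptor subunits Itga3, Itga6 and Itgb4. The higher members were Cldn11 (2.64), Itga2b (1.56), Itga4 (1.5), Itgb5 (1.23) and Itga9 (1.21). Itgb1 (0.08), Itga5 (-0.07) and Itgav (0.11) differed by little. The nascent mesoderm markers were split between the same libraries. T went from 547 to 6.30 CPM, and Mesp1, Mixl1 and Eomes were also lower at day 4. Kdr went from 67.8 to 305 CPM and Pdgfra from 145 to 240. With 1 library a day there was no test.

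Between days 2 and 11 of 2iJ+B-A, 4 of 27 members were higher at day 11 (14.8%, where 8.9% of 13984 genes were) and 2 were lower (7.41%, where 6.12% were). Of the 4, 3 reached 1 CPM only at day 11. At 5 CPM or more on either of these days, 1 of 15 members was higher (6.93% of genes) and 2 were lower (3.51% of genes). Of the 2, Cldn3 was under 5 CPM at day 11 and entered only through day 2. The higher members were Itga1 (2.30 on the log2 scale), Itgb2 (2.12), Itga8 (1.88) and Itgav (1.00), and the lower ones Cldn3 (-1.79) and Cldn7 (-1.12). Cldn4 was -0.74 and Cldn6 0.12. Only 1 library was taken on each day.

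At day 2, where the sorted and unsorted cells had the same mixture, 16 of 31 members were higher in the sorted library (51.6%, where 17.6% of 14372 genes were) and 5 were lower (16.1%, where 13.9% were). Since 1 CPM was needed in only 1 of both libraries, 8 of the 16 and 2 of the 5 entered only through the library where they were high, and these counts are a description. At 5 CPM or more in either library, 8 of 17 members were higher (14.7% of genes) and 1 was lower (10.8% of genes). Of the 8, Itga2b, Itga7 and Itgb4 were under 5 CPM in the unsorted library and entered only through the sorted library. The largest values above 0 were those of Itgb4 (3.36 on the log2 scale), Cldn7 (3.13), Cldn9 (3.08), Itga2b (2.65), Cldn4 (2.61), Cldn23 (2.49) and Itgb5 (2.43). Itga4 (0 counts in the sorted library and 28 at day 2), Cldn5 (-1.98), Itgal (-1.23), Cldn12 (-1.21) and Itgam (-1.20) were lower. In the same library Cdx2 was at 235 CPM against 15.0 in the unsorted day 2 library and Krt18 at 1595 against 160.5. The fibroblast gene Col1a1 was at 42.1 CPM there and between 0.618 and 5.17 in the others, and Col1a2 at 24.8 against 0.749 to 9.95. The part of these cells, of the cell line and of the mapping of this library in its values was not tested.

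Genes that work with claudins and integrins were taken from 3 lists. Of 23 tight junction partners, 5 were higher (21.7%, where 11.5% of all genes tested were) and 4 lower (17.4%, where 15.5% were) in mesoderm, with a median log2 fold change of -0.51 against -0.03 over all genes. Jam2, a junctional adhesion molecule, differed by -6.39 ± 0.46 log2 units (SE, edgeR adjusted p = 0.00125) in mesoderm. It went from 167, 241 and 289 CPM in 2iJ+B-A to 1.78 and 3.68, and was at 25.6 CPM in the sorted library (-3.13 ± 0.52 log2 units, SE, edgeR adjusted p = 0.0313), where it was the only partner called. The scaffold Tjp3 differed by -2.20 ± 0.63 log2 units (SE, edgeR adjusted p = 0.0452) and the polarity kinase Prkcz by -1.57 ± 0.37 log2 units (SE, edgeR adjusted p = 0.0256) in mesoderm, and Jam3 by 1.18 ± 0.28 log2 units (SE, edgeR adjusted p = 0.0259). In the sorted library Tjp3 was at 75.4 CPM against 14.3, 10.1 and 5.18 in 2iJ+B-A, a difference of 2.98 ± 0.65 log2 units (SE, edgeR adjusted p = 0.0534) that was not called.

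Of 22 integrin adaptors and signalling proteins, 3 were higher and 3 lower in mesoderm (13.6% each, near the 11.5% and 15.5% of all genes), with a median log2 fold change of -0.01. The talin Tln2 (1.21 ± 0.32 log2 units, SE, edgeR adjusted p = 0.0367) and the focal adhesion kinase Ptk2 (0.77 ± 0.16 log2 units, SE, edgeR adjusted p = 0.0166) were higher, and the tensins Tns1 (-2.61 ± 0.36 log2 units, SE, edgeR adjusted p = 0.00575) and Tns3 (-0.73 ± 0.18 log2 units, SE, edgeR adjusted p = 0.0265) lower. Tns3 was the only one called in the sorted library, where it was higher (1.25 ± 0.20 log2 units, SE, edgeR adjusted p = 0.0304). Of 14 integrin ligands outside the collagens and laminins, 13 were tested (median log2 fold change -1.25 in mesoderm). Of these, 1 was higher in mesoderm (7.69%), Fbn1 (4.22 ± 0.89 log2 units, SE, edgeR adjusted p = 0.0185), and 4 were lower (30.8%), among them osteopontin, Spp1 (-6.35 ± 0.36 log2 units, SE, edgeR adjusted p = 0.000934), the basement membrane protein Nid1 (-3.88 ± 0.62 log2 units, SE, edgeR adjusted p = 0.00828) and nephronectin, Npnt (-2.51 ± 0.45 log2 units, SE, edgeR adjusted p = 0.0115). Spp1 was between 97.3 and 237 CPM in the mESC and sorted libraries and at 2.00 and 1.26 in mesoderm. Npnt, a ligand of Itga8, was at 4.87 and 2.62 CPM in mesoderm and 13.7, 24.2 and 26.5 in 2iJ+B-A. No ligand was called in the sorted library, and no gene of the 3 lists against 2iJ.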

How the data were processed

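Poly-A libraries were made with a directional kit, and the authors sequenced read pairs, trimmed them with cutadapt and aligned them to NCBIM37 with STAR 2.4.2a. The deposited values are raw counts per gene, without normalisation, for unstranded counting and for each strand; those of the reverse strand were used, since the other strand held 5.03% to 6.47% of strand-assigned counts. The batch adjustment that the study describes is not part of these counts.

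The 8 libraries formed 5 groups from the labels. A gene needed 10 or more counts in 2 or more libraries to be fitted with edgeR 4.0.16 (R 4.3.3; TMM scaling, quasi-likelihood test, Benjamini-Hochberg adjusted p under 0.05), with 3 residual degrees of freedom and a common biological coefficient of variation of 0.363. SE was taken as the absolute log2 fold change over the root of the F statistic. Single libraries were compared by log2 TMM-scaled CPM (prior count 2) where 1 of them had at least 1 CPM, past 1 log2 unit and without a test. Named members were those called in the mesoderm or sorted comparison, those reaching 10 CPM, and Cldn6, Cldn4 and Itga6. For each partner list, at most 4 genes per comparison were named, by largest change among those called with 10 CPM in the higher group. The members, lists and tests were chosen with earlier results of these data known. Alternatives were DESeq2 1.42.0, other scaling, no filter, unstranded counts, other sets of libraries and a slope on day.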

Additional observations from a re-analysis of the deposited data

Results flagged for a closer look

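Counts on the strand opposite to a gene, which no comparison used, made up 5.03% to 6.47% of strand-assigned counts in the libraries. For 5 members with at least 10 such counts over the 8 libraries they were the majority. The share was 61.7% for Cldn10 (29 counts against 18 on its own strand), 77.9% for Cldn18, 83.1% for Cldn20 and 75.3% for Itga4. Cldn22 had 12 counts on the opposite strand and 0 on its own, a share of 100%. Cerkl overlaps Itga4 on that strand by 1124 exon bases, and no annotated exon overlaps those of the other 4 there.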

How the results depend on the processing

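Of the comparisons of members, mesoderm against 2iJ+B-A gave 20 calls, and 22 with DESeq2, 18 with unstranded counts and 20 with RLE scaling, no filter, these groups alone or the 5 unsorted mESC libraries as reference. Leaving out single libraries gave 9 to 20: 20 without mesoderm day 3, 10 without day 4, and 11, 9 and 10 without days 2, 5 and 11 of 2iJ+B-A. Cldn7 reversed without mesoderm day 3, to -2.50 on the log2 scale, and was 1.31 without day 4. The sorted comparison gave 2 calls, 6 with DESeq2, 6 without the filter, 1 with unstranded counts, 10 with only the groups compared, 0 with a slope on day, and 0 to 10 without single libraries, 10 without either mesoderm day and 0 without any 2iJ+B-A day. The count of 0 members for 2iJ+B-A against 2iJ was the same under 11 alternatives and 5 in the fit of the 5 unsorted mESC libraries, which was chosen after seeing the data. Single libraries compared at 5 CPM or more gave 9 members between the mesoderm days (15 at 1 CPM). They gave 3 between days 2 and 11 of 2iJ+B-A (6) and 9 between sorted and unsorted day 2 (21). The members compared numbered 14, 15 and 17 at 5 CPM, and 23, 27 and 31 at 1 CPM. Unstranded counts gave 2 members between 2iJ and 2i (1). The cause of these changes was not tested. No paired analysis was possible because the labels gave no replicate numbers that groups share.

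With 1 library, the sorted, 2i and 2iJ groups have no spread of their own, and 15 of the 53 members were too low to test.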
